A study of Sus scrofa with 19 samples.

Results

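The comparison described here is that of adrenal glands from piglets of microalgae-fed and control-fed sows, where the sow had received saline, not lipopolysaccharide (LPS), in late gestation. Its members were chosen from the sample labels alone: maternal diet Microalgae against Control, within maternal saline. That gave 6 of the 19 arrays, 3 microalgae piglets (12, 15 and 22 by the numbers in the labels) and 3 control piglets (8, 14 and 21). Of the 27558 probe sets on the array, 20668 were compared, those whose mean log2 signal over the 19 arrays lay above 3.23, which leaves out the dimmest 6890.

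All piglets were male pigs, and each came from a different sow. The sows ate their diets from gestation day 75 and received LPS or saline on gestation day 112, so the mother of every control and microalgae piglet compared here had been injected with saline. Piglets were weaned at 21 days, received LPS themselves at 28 days, and were killed 2 hours later. Every gland, that of the controls included, was therefore taken during the piglet's own response to LPS, and no gland of an unchallenged piglet enters any group. The glands were snap frozen whole, so each array mixes the steroid-producing cortex, the catecholamine-producing medulla, capsule, vessels and blood-derived cells. The other groups used below are microalgae after maternal LPS (piglets 7 and 23), control after maternal LPS (piglets 6, 16 and 17), and fish oil after maternal saline (piglets 9, 11, 13 and 18). No dose of either agent is stated in the labels.

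The adrenal gland answers bacterial LPS as an endocrine organ and as an immune target. Pituitary ACTH drives cortex cells to turn cholesterol into cortisol, resident macrophages and other cells sense LPS through Toll-like receptors, and cytokines such as IL6 act back on cortisol output. Microalgae supplements are a dietary source of the long-chain omega-3 fatty acid DHA, which enters membrane phospholipids and is a precursor of lipid mediators that limit inflammation.

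Correlations across probe sets among the 6 arrays ranged from 0.965 to 0.982, against 0.934 to 0.982 among all 19. The array medians were 4.42 to 4.47 log2 in the control group and 4.38 to 4.49 in the microalgae group. The labelled tissue was borne out by its markers: CYP17A1, CYP21A2, HSD3B1 and SCARB1, genes of the cortex, were at 10.63 log2 or more in each of the 6 piglets. DBH and PNMT of the medulla were above 3.23, the level of the filter, in each of them. The mean relative level of 22 medulla markers ran from -0.11 to 0.30 log2 in the control piglets and from -0.17 to 0.38 in the microalgae piglets, so the level of these markers overlapped between the groups. One gland carried a liver transcript: ALB, serum albumin, read 7.30 log2 in control piglet 14 and between 2.56 and 3.21 in the other 5. In whole glands, fewer cells of a type and less RNA per cell cannot be told apart.

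No gene differed between microalgae and control piglets past the threshold. In limma's moderated test with Benjamini-Hochberg adjustment, 0 of 20668 probe sets passed an adjusted p of 0.05, 0%, and the smallest adjusted p was 0.605. At an unadjusted p under 0.05 there were 563 probe sets, 2.72% of those tested, 262 higher with microalgae (1.27%) and 301 lower (1.46%). With each array centred on its median that split became 318 higher and 243 lower, and the total was 561. At an unadjusted p under 0.01 there were 85, 0.411%. The 3 microalgae values lay entirely above the 3 control values for 742 probe sets (3.59%) and entirely below for 878 (4.25%), together 7.84%. The median size of a difference, whatever its sign, was 0.14 log2, and the median standard error (SE) was 0.213. Differences above 1 log2 in either direction were found for 109 probe sets. Leaving out microalgae piglet 15 raised the number at an unadjusted p under 0.05 from 563 to 900, and the number past the adjusted threshold was still 0. The number of arrays limits the precision, so a missed threshold does not show that the diets gave equal levels.

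Since no gene passed, the largest differences are described as measured values and not as changes. By rule, the genes are those with 1 gene symbol, an unadjusted p under 0.01 and no overlap between the 3 microalgae and the 3 control piglets. There were 22 such genes on the higher side, of which the 15 with the largest differences are named, and 14 on the lower side, all named. Their separation was the criterion for naming them, so it supports nothing further. All 29 had an adjusted p of 0.9998 in limma. Levels are on the log2 scale of each gene's own probe set and cannot be ranked between genes.

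The largest named difference was that of SPINK5, a serine protease inhibitor best known from the skin barrier. Its log2 signal was 7.23, 8.08 and 7.62 in control piglets 8, 14 and 21, and 8.70, 9.66 and 9.38 in microalgae piglets 12, 15 and 22. The means differed by 1.60 ± 0.50 log2 (± is the SE of the model throughout), a 3.04-fold higher signal with an unadjusted p of 0.00492 in limma. FAM129A, also called NIBAN1, a gene induced by cell stress, had the smallest p among the named genes. It read 6.59, 6.13 and 5.93 in the controls and 7.39, 7.25 and 7.69 in the microalgae piglets, a difference of 1.23 ± 0.26 with an unadjusted p of 0.000207. All 3 microalgae values of FAM129A lay more than the groups' own standard deviations (0.34 and 0.22) above the highest control.

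The higher genes are ordered here by known role, a grouping made after their values were seen and not tested; the first are BCL2 family genes and a DNA repair gene. PMAIP1, which encodes the pro-apoptotic protein NOXA, read 5.56, 5.54 and 5.35 in the controls and 6.75, 6.02 and 6.14 with microalgae, a difference of 0.83 ± 0.26. Microalgae piglet 12 was the highest of these. BCL2L11, which encodes the pro-apoptotic protein BIM, read 2.996, 3.27 and 3.26 in the controls and 4.04, 3.78 and 3.51 with microalgae (0.60 ± 0.18). BCL2L10, another member of the family, read 2.94, 2.74 and 3.01 against 3.51, 3.84 and 3.24 (0.63 ± 0.22). TDP2, which frees DNA ends from trapped topoisomerase, was tight within both groups, at 5.31, 5.21 and 5.10 in the controls and 5.99, 5.81 and 6.06 with microalgae (0.75 ± 0.20).

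The next genes are known from phagocytes and lymphocytes. GP91-PHOX, the array's name for CYBB, encodes the catalytic subunit of the phagocyte NADPH oxidase. It read 3.82, 4.40 and 3.75 in the controls and 4.83, 4.90 and 4.68 with microalgae, a difference of 0.82 ± 0.20 with an unadjusted p of 0.000765. MPEG1, the pore-forming perforin-2 of macrophages, read 4.68, 3.98 and 3.87 in the controls and 4.88, 4.78 and 4.73 with microalgae (0.62 ± 0.21). Control piglet 8 lay just below the microalgae range for MPEG1, and the other 2 controls well below it. ITGA4, the integrin subunit by which leukocytes attach to vessel walls, read 3.39, 2.98 and 2.79 against 3.95, 3.65 and 3.62 (0.69 ± 0.19). DOCK8, a regulator of leukocyte shape and migration, read 4.12, 3.67 and 3.85 against 4.75, 4.60 and 4.23 (0.64 ± 0.22), while its other 2 probe sets gave 0.14 and 0.11. The 20 macrophage and monocyte markers matched by symbol, GP91-PHOX not among them, had a median difference of 0.18. Their mean per piglet overlapped between the diets (-0.32 to -0.09 in the controls, -0.30 to 0.31 with microalgae). The part of these cells in the values was not tested.

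The remaining higher genes have varied roles. SLC16A10, a transporter of aromatic amino acids and thyroid hormone, read 6.35, 7.17 and 6.96 in the controls and 7.88, 7.63 and 7.96 with microalgae (0.998 ± 0.31). MIR296, the gene of the microRNA miR-296, read 2.89, 3.45 and 3.57 against 4.27, 4.48 and 4.22 (1.02 ± 0.31). ADPRM, a hydrolase of ADP-ribose and related nucleotides, read 4.17, 4.34 and 4.15 against 5.07, 4.62 and 5.53 (0.85 ± 0.26). F11R, which encodes the junctional adhesion molecule JAM-A, read 6.30, 6.30 and 6.64 against 7.34, 6.93 and 7.25 (0.76 ± 0.24). C13H21orf91, named for its open reading frame, read 7.28, 7.93 and 8.04 against 8.92, 8.69 and 8.44 (0.93 ± 0.23). In each of these 5 the lowest microalgae value exceeded the highest control value by less than 1 log2.

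On the lower side, CHKA had the largest difference. It encodes choline kinase alpha, which starts the synthesis of phosphatidylcholine, the main membrane phospholipid. CHKA read 6.68, 6.82 and 6.43 in the controls and 5.69, 5.66 and 5.91 with microalgae, a difference of -0.89 ± 0.22 with an unadjusted p of 0.000964. SLA-DRB1, the beta chain of a major histocompatibility complex class II molecule that presents peptides to helper T cells, read 5.52, 5.82 and 6.66 in the controls and 5.05, 4.89 and 5.48 with microalgae (-0.86 ± 0.26). SLA-DRB1 belongs to a family of closely related, polymorphic genes, so its signal is uncertain. The gap between the groups was narrow, since control piglet 8 stood next to microalgae piglet 22.

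ANK3, which encodes ankyrin-G, an anchor of membrane proteins, read 5.25, 5.60 and 5.77 in the controls and 5.07, 4.85 and 4.85 with microalgae (-0.62 ± 0.18). SLC25A28, the mitochondrial iron importer mitoferrin-2, had the smallest within-group standard deviations of the 29 (0.0565 and 0.0691, taking the larger of each gene's pair), with 8.09, 8.18 and 8.09 against 7.75, 7.62 and 7.67 (-0.44 ± 0.15). ADARB1, an enzyme that edits adenosine to inosine in RNA, read 6.33, 6.21 and 6.02 against 5.68, 5.89 and 5.80 (-0.39 ± 0.14). RHBDF1, an inactive rhomboid protein that steers the release of growth factors, read 5.95, 5.56 and 5.63 against 5.08, 5.10 and 5.32 (-0.55 ± 0.18). FBXL6, an F-box protein, read 5.29, 5.01 and 4.54 against 4.33, 4.14 and 4.46 (-0.64 ± 0.20). ALDH1B1, a mitochondrial aldehyde dehydrogenase, read 4.65, 4.45 and 4.84 against 4.21, 4.30 and 3.99 (-0.48 ± 0.16), but its other probe set gave 0.15. The other 6 lower genes, with differences between -0.76 and -0.52, were LOC100519645, PLEKHM3, LOC100152003, the cilia gene CFAP45, the peroxisomal protease TYSND1 and LZTS1.

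**Figure D1:**
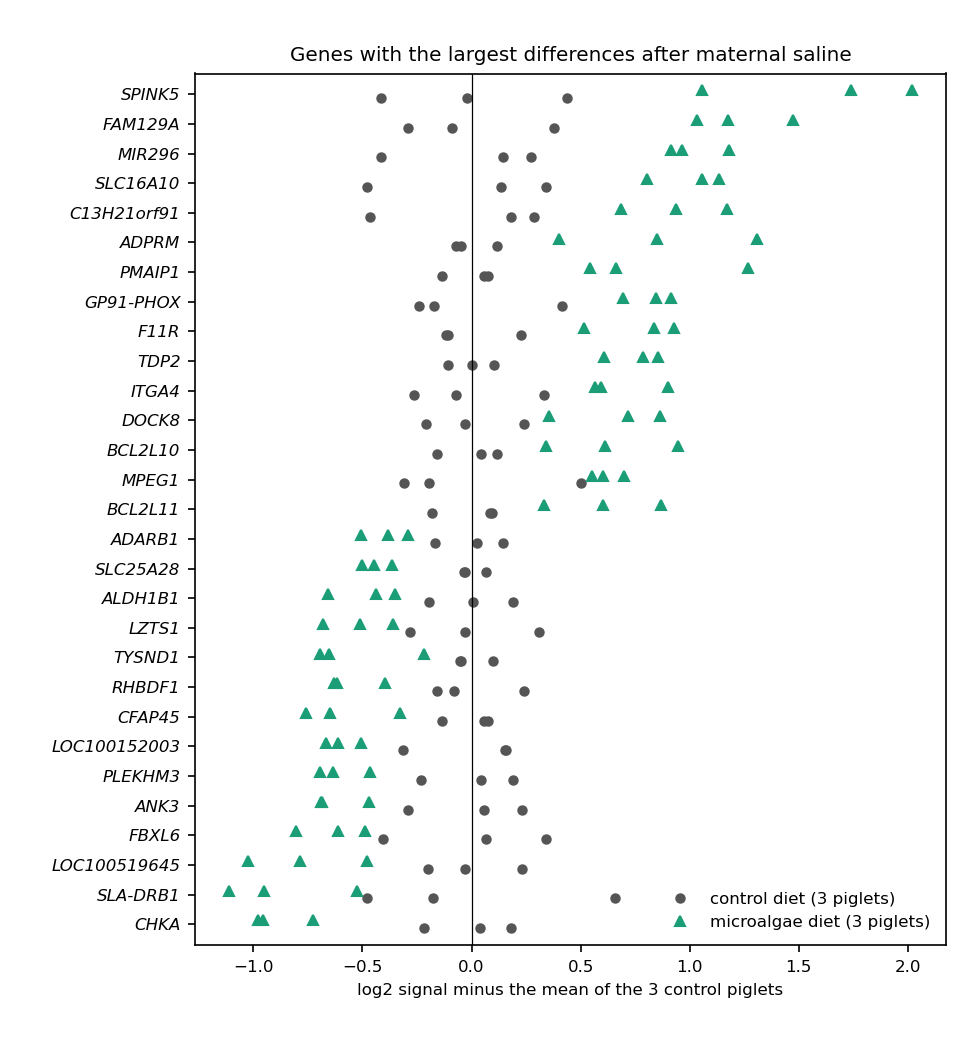
Log2 signal of the 29 named genes in each of the 6 piglets after maternal saline, drawn as the distance from the mean of the 3 control piglets (x axis, log2); circles are control piglets and triangles microalgae piglets, 1 row per gene. No triangle overlaps the circles of its row, which is how the genes were chosen; SPINK5 has the widest separation of the means (1.60 log2) and ADARB1 the narrowest (-0.39).

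ITGA4, BCL2L10, BCL2L11 and LOC100519645 had a group mean under 3.23, the level of the filter, so their differences are uncertain. PMAIP1 is read by a pair of probe sets with identical values. For NR1H3, IRF3 and CLK2 a dimmer probe set met the criteria while the brighter one of the same gene did not: -1.15 against -0.00 for NR1H3, -0.70 against -0.12 for IRF3 and -0.43 against -0.37 for CLK2, so they were not named. When each of the 6 piglets was left out in turn, all 29 kept their direction, as genes chosen for groups without overlap must. The unadjusted p then passed 0.05 for BCL2L10 without piglet 15 (0.0608), MPEG1 without piglet 21 (0.0563) and LZTS1 without piglet 8 (0.0613).

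The probe set with the smallest p, 15344727, carries no gene symbol in the array annotation. It read 6.21, 5.54 and 7.54 in control piglets 8, 14 and 21, and 10.21, 10.64 and 8.70 in microalgae piglets 12, 15 and 22. The difference was 3.42 ± 0.61, with an unadjusted p of 2.92e-05 and an adjusted p of 0.605 in limma. Here the control piglets were the ones that stood apart: the 16 other piglets of the study, of every diet and maternal challenge, lay between 8.02 and 10.64. Other probe sets without a symbol, all chosen after their values were seen, were 15180349 and 15182131, which hold identical values and read 4.99, 3.30 and 3.87 in the controls and 2.79, 2.70 and 2.45 with microalgae (-1.41 ± 0.33). Probe set 15182501 had a difference of -1.80 ± 0.48 and 15342811 one of -0.81 ± 0.19.

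The same diets could be compared in piglets whose mothers had received LPS, on arrays that played no part in choosing the genes. There, with 2 microalgae and 3 control piglets, 0 of 20668 probe sets passed the adjusted threshold in limma (smallest adjusted p 0.999). At an unadjusted p under 0.05 there were 752, 3.64% of those tested, 424 higher (2.05%) and 328 lower (1.59%), and 51.5% of all probe sets were higher by any amount. With arrays centred on their medians these were 293 and 489, and with quantile normalization 411 and 483. Of all probe sets tested, 39.1% had a difference of the same sign after maternal saline and after maternal LPS. Of the 563 at an unadjusted p under 0.05 after maternal saline it was 29.7%, and of the 85 under 0.01 it was 30.6%. A p under 0.05 in both comparisons was reached by 1 probe set with the same sign (0.00484%) and 44 with opposite signs (0.213%). Neither pattern was tested as a whole, and probe sets are not independent of each other.

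Of the 29 named genes, 10 kept their direction after maternal LPS and 19 did not. Over all probe sets tested, 39.1% had the same sign in both comparisons, so nothing particular to the named genes is read from this count. Of the 15 higher genes 4 were again higher (SPINK5, MIR296, SLC16A10 and BCL2L11) and 11 were lower. Of the 14 lower genes 6 were again lower and 8 were higher. SPINK5 had the largest difference of the same sign: 6.34, 7.46 and 8.24 in control piglets 6, 16 and 17, and 8.37 and 7.68 in microalgae piglets 7 and 23, which overlapped (0.68 ± 0.56). ANK3 had the smallest gap between both settings among the 29, with 5.11, 5.03 and 5.33 in the controls and 4.71 and 4.86 with microalgae (-0.37 ± 0.20). All microalgae values of ANK3 lay below all controls in both settings.

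FAM129A ran the other way after maternal LPS, at 6.89, 6.66 and 6.43 in the controls and 6.62 and 5.68 with microalgae (-0.51 ± 0.29). GP91-PHOX read 5.06, 4.87 and 4.54 in those controls and 4.48 and 4.19 with microalgae (-0.48 ± 0.23), so here every control piglet was above every microalgae piglet. CHKA read 6.93, 6.03 and 6.27 in the controls and 7.25 and 6.92 with microalgae (0.68 ± 0.25). SLA-DRB1 read 5.32, 5.01 and 5.12 in the controls and 5.83 and 6.10 with microalgae (0.81 ± 0.29), again without overlap and with the sign turned. Among the 15 higher genes, 4 (C13H21orf91, ADPRM, GP91-PHOX and BCL2L10) had all microalgae values below all controls. None of the 15 had all microalgae values above, as they were after maternal saline. Among the 14 lower genes, SLA-DRB1 and FBXL6 had all microalgae values above, and ANK3 and LZTS1 had all of them below, as after maternal saline. Over all probe sets, 18.2% did not overlap between the 2 and the 3 piglets, in either direction.

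The difference between both diet comparisons was tested in the same limma model. At the adjusted threshold 0 of 20668 probe sets passed, with a smallest adjusted p of 0.813, and 1118 (5.41%) had an unadjusted p under 0.05, 525 with a diet difference higher after maternal saline (2.54%) and 593 lower (2.87%). With arrays centred on their medians that split was 721 and 384. Of the 29 named genes 20 were among those under 0.05, 12 of the higher and 8 of the lower. The naming had already selected large differences after maternal saline, so nothing is read from that count. The largest such differences were 1.74 ± 0.40 log2 for FAM129A (unadjusted p 0.00037), -1.68 ± 0.39 for SLA-DRB1 (0.000493) and -1.56 ± 0.34 for CHKA (0.000212), each with an adjusted p of 0.858. Single piglets weighed on these counts. Without control piglet 6 of the maternal LPS group the 752 became 1409 and the 1118 became 1851. The 1118 became 683 without control piglet 8 and 737 without microalgae piglet 7.

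**Figure D2:**
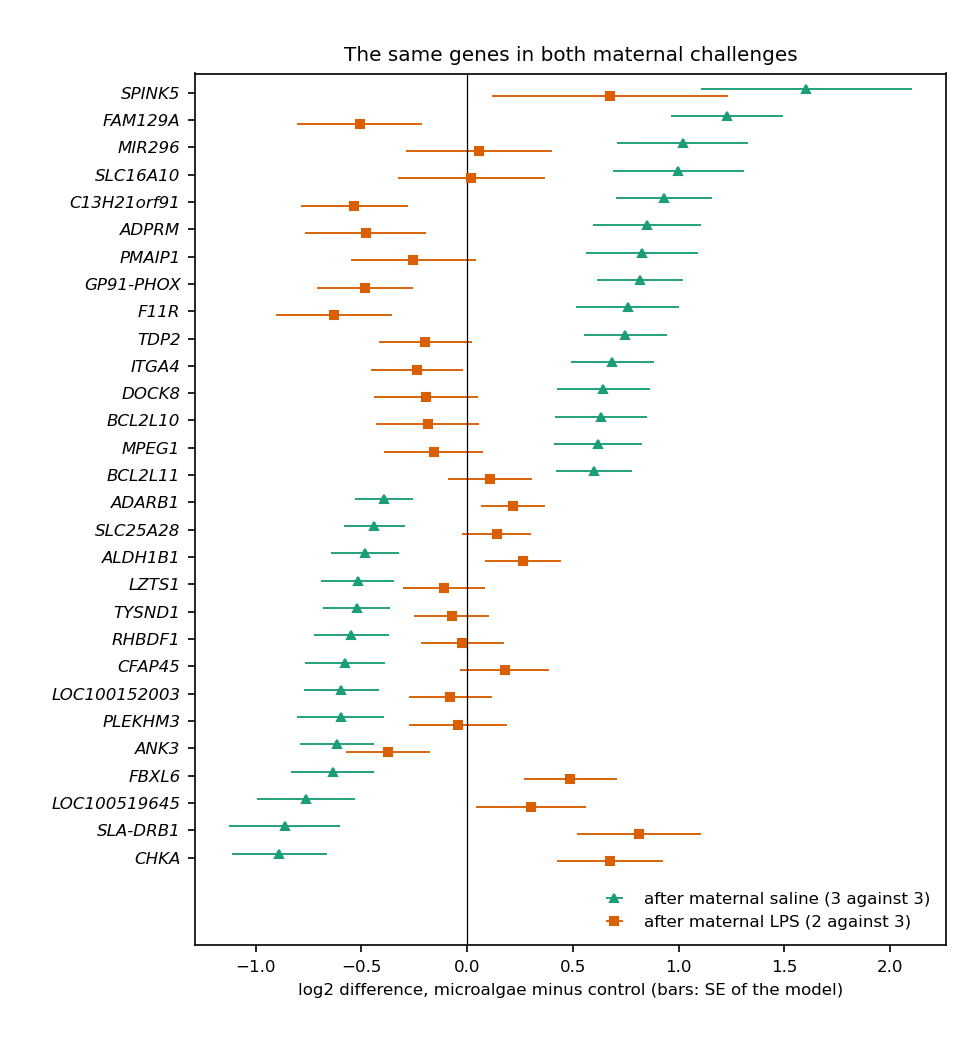
Microalgae minus control for the 29 named genes (x axis, log2 difference; bars are the SE of the model), after maternal saline (triangles, 3 against 3 piglets) and after maternal LPS (squares, 2 against 3). The squares of 19 genes lie on the other side of 0 from their triangles, and those of SPINK5 and ANK3 lie on the same side. Over all probe sets tested, 39.1% had the same sign in both comparisons.

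Fish oil after maternal saline was set beside microalgae only as values, since both share the same 3 control piglets. The fish oil differences of the 15 higher genes ran from -0.16 log2 (SPINK5) and 0.26 (PMAIP1) up to 0.81 (ITGA4), and those of the 14 lower genes from -0.39 (LZTS1) to 0.01 (FBXL6). SPINK5 differed from control by -0.16 log2 with fish oil and 1.60 with microalgae. CHKA differed by -0.08 with fish oil and -0.89 with microalgae, and SLA-DRB1 by -0.01 and -0.86. FAM129A differed by 0.34 and 1.23. ITGA4 differed by 0.81 with fish oil and 0.69 with microalgae, BCL2L11 by 0.63 and 0.60, and GP91-PHOX by 0.62 and 0.82. The unnamed probe set 15344727 differed by 3.28 with fish oil and 3.42 with microalgae. No likeness between both diets is read from these values, since each contains the same 3 control piglets.

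The pathways and cell types of the gland were then described by gene lists, 33 in all, with 584 distinct genes tested and 1 probe set per gene. None passed the adjusted threshold. At an unadjusted p under 0.05 there were 8 higher and 4 lower, together 2.05% of the 584. Over the 9992 genes with a symbol the shares were 1.49% higher and 1.19% lower. A higher value with microalgae, whatever its size, was found for 59.8% of the 584 genes, for 53.9% of the 9992 genes with a symbol and for 49.2% of all probe sets. After maternal LPS, 47.9% of the 9992 genes were higher. The median difference over the 9992 genes was 0.02 log2, which is the level beside which the list medians should be read. The median of a list took the other sign, when some 1 piglet was left out, for 21 of the 33 lists.

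Genes of steroid hormone synthesis were slightly higher with microalgae, none beyond the spread between piglets. Of 13 measured, 11 were higher and 2 lower, with a median difference of 0.17 log2, and 0 reached an unadjusted p under 0.05. CYP17A1, which directs steroid precursors to cortisol and androgens, read 11.88, 12.50 and 12.31 in the controls and 12.56, 12.52 and 12.32 with microalgae (0.24 ± 0.17). CYP21A2, the 21-hydroxylase on the way to cortisol, read 10.74, 11.35 and 11.15 against 11.49, 11.05 and 10.96 (0.08 ± 0.18), a difference that turned to -0.03 under quantile normalization. HSD3B1, which makes progesterone from pregnenolone, read 10.63, 11.31 and 11.36 against 11.31, 10.85 and 11.66 (0.17 ± 0.25). SCARB1, which draws cholesterol into the cell from high-density lipoprotein, read 10.82, 11.62 and 11.66 against 11.49, 11.27 and 11.84 (0.17 ± 0.25). In CYP17A1, CYP21A2, HSD3B1 and SCARB1 control piglet 8 was the lowest of the 6. HSD3B1 was at -0.06 without that piglet, SCARB1 at -0.10 and CYP21A2 at -0.08.

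Per piglet, the mean relative level of the 13 steroid genes was -0.07 to 0.02 in the controls, 0.03 in each of microalgae piglets 12 and 15, and 0.37 in microalgae piglet 22. Without that piglet 8 of 13 genes were higher, with a median of 0.07. After maternal LPS 6 of the 13 were higher, with a median of -0.10. HSD11B1, which regenerates cortisol from cortisone, read 4.71, 4.15 and 4.65 in the controls and 4.67, 4.76 and 4.89 with microalgae (0.27 ± 0.26). HSD11B2, which inactivates cortisol, read 5.70, 5.56 and 6.26 against 6.67, 5.40 and 6.05 (0.20 ± 0.25) and turned to -0.12 without piglet 12. Among listed regulators of the cortex 12 of 17 were higher, with a median of 0.16. It ranged from 0.04 without piglet 8 (also 0.04 without piglet 12) to 0.27 without piglet 21, and was 0.26 without piglet 15. That list holds the symbol SF1, which on this array is splicing factor 1 and not the cortex regulator NR5A1. PDE8A and PDE8B, phosphodiesterases that restrain the cyclic AMP signal of ACTH, had differences of 0.33 ± 0.21 and 0.52 ± 0.30.

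Genes of cholesterol synthesis were spread widely among the microalgae piglets. Of 12 measured, 9 were higher and 3 lower, with a median of 0.19. HMGCS1, which makes the precursor of mevalonate, read 8.97, 8.87 and 8.23 in the controls and 9.79, 8.52 and 9.04 with microalgae (0.43 ± 0.42). SQLE, the squalene epoxidase, read 6.96, 6.75 and 6.39 against 7.56, 6.56 and 7.16 (0.39 ± 0.37). Microalgae piglet 12 was the highest and microalgae piglet 15 lay among the controls in both genes. The mean of the list showed the same order, at 0.59 in piglet 12, 0.32 in piglet 22 and -0.20 in piglet 15, with the controls between -0.22 and 0.17. Without piglet 12, 6 of the 12 were higher, with a median of -0.03, and without piglet 15, 11 were higher, with a median of 0.42. After maternal LPS 11 of 12 were higher, with a median of 0.30; there control piglet 6 had a list mean of -0.90, and the other 4 piglets lay between 0.00 and 0.14.

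In cholesterol transport 10 of 16 genes were higher and 6 lower, with a median of 0.14 that was 0.03 without piglet 12, 0.06 without piglet 21 and 0.05 with quantile normalization. All microalgae values lay above all controls for 1 gene (STARD4) and below for 3. Over the 9992 genes with a symbol this held for 4.12% and 3.84%, and over the 584 list genes for 24 and 24. The 3 lower genes, named after their values were seen, were the cholesterol exporter ABCA1 (-0.27 ± 0.20), the apolipoprotein APOA1 (-0.32 ± 0.20) and the sterol-binding protein OSBP (-0.13 ± 0.16). STARD4, which carries cholesterol between membranes, read 3.85, 3.87 and 3.34 in the controls and 5.002, 3.89 and 4.68 with microalgae, without overlap (0.83 ± 0.41, unadjusted p 0.0594 in limma). NPC2, which exports cholesterol from lysosomes, read 8.91, 8.17 and 9.01 against 9.25, 8.98 and 9.40 (0.51 ± 0.23, unadjusted p 0.0423).

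Genes that make, convert and oxidize fatty acids, omega-3 ones included, were near even in direction. Of 19 genes of fatty acid synthesis and desaturation 10 were higher, of 21 in the eicosanoid and omega-3 mediator pathway 11, and of 23 in fatty acid oxidation 11, with medians of 0.02, 0.04 and -0.04. When 1 piglet was left out these ranged from -0.00 (without 8) to 0.11 (without 15), from 0.02 (without 8) to 0.09 (without 22) and from -0.04 (without 8) to 0.07 (without 21). FADS1, the delta-5 desaturase of the omega-3 and omega-6 pathways, read 7.58, 7.80 and 8.14 in the controls and 8.62, 8.04 and 8.28 with microalgae (0.48 ± 0.30). FADS2, the delta-6 desaturase, read 9.53, 9.40 and 10.05 against 9.91, 9.56 and 9.90 (0.13 ± 0.20). Both overlapped between the diets. ACSL3, which activates fatty acids, had a difference of 0.48 ± 0.24, and EHHADH of peroxisomal oxidation read 4.96, 5.09 and 5.05 against 4.45, 4.90 and 4.63 (-0.38 ± 0.18, unadjusted p 0.0493). ALOX5AP, which supplies arachidonic acid to the leukotriene pathway, read 4.84, 5.28 and 5.46 against 6.32, 5.99 and 5.66, without overlap (0.80 ± 0.45). PTGS2, the inducible cyclooxygenase, read 6.37, 6.08 and 6.02 against 5.89, 5.84 and 6.16 (-0.19 ± 0.44).

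**Figure D3:**
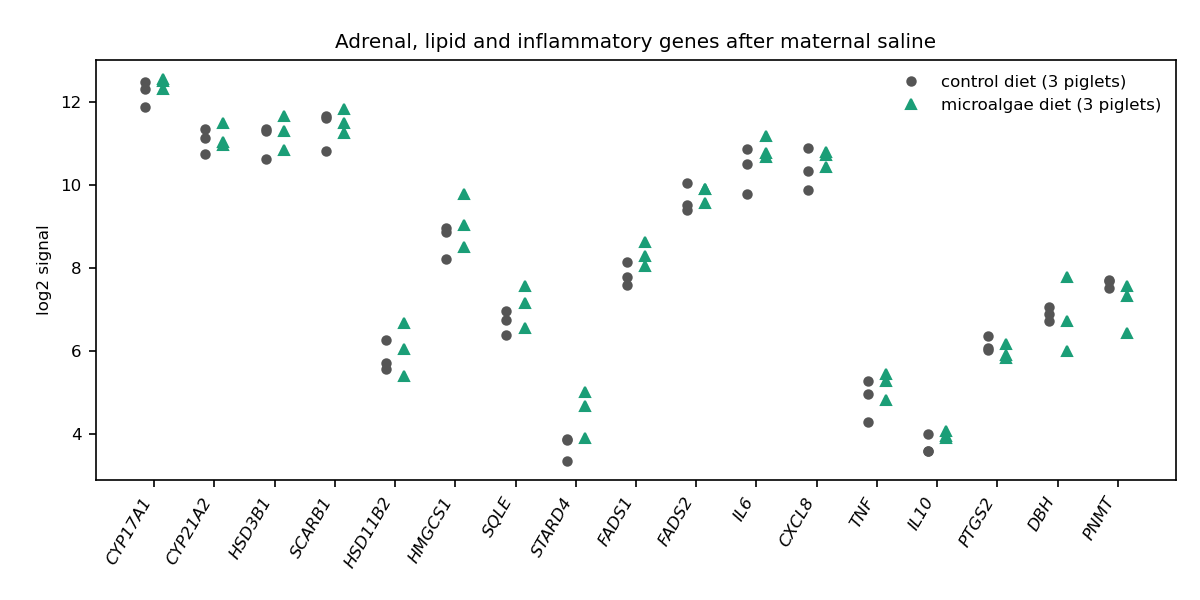
Log2 signal (y axis) of 17 adrenal, lipid and inflammatory genes in the 3 control piglets (circles) and the 3 microalgae piglets (triangles) after maternal saline. The groups overlap for every gene drawn except STARD4 (control 3.34 to 3.87, microalgae 3.89 to 5.002).

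Toll-like receptor genes, which sense LPS and other microbial products, were mostly higher with microalgae. Of 27 receptors and adaptors 20 were higher and 7 lower, with a median of 0.15. All microalgae values lay above all controls for 5 of them and below for 1 (IKBKB, named after its value was seen); over the 9992 genes with a symbol this held for 4.12% and 3.84%. TLR2, the receptor of bacterial lipoproteins, read 5.55, 5.39 and 5.41 in the controls and 5.90, 6.03 and 5.99 with microalgae (0.52 ± 0.17, unadjusted p 0.00563 in limma). LY96, also called MD-2, the partner by which TLR4 binds LPS, read 4.66, 4.11 and 3.62 against 4.76, 4.66 and 4.72 (0.59 ± 0.25, unadjusted p 0.0299). MYD88, the adaptor shared by most of these receptors, read 6.27, 6.42 and 6.42 against 7.07, 6.42 and 6.82 (0.41 ± 0.19). The step in MYD88 was minimal for piglet 15 and clear for piglets 12 and 22. TLR3 (0.53 ± 0.32) and TLR7 (0.39 ± 0.22) were the other separated receptors, and TLR4 itself had 0.22 ± 0.30; TLR4 and TLR7 were named after their values were seen.

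Per piglet, the mean of the 27 genes was -0.10 to 0.01 in the controls and 0.07 to 0.12 with microalgae, so the groups did not overlap but lay close. Among the 33 lists the same held for steroid hormone synthesis, cortex regulators and cell proliferation, again with the microalgae piglets higher. These separations were not tested. Without piglet 22, 16 of the 27 Toll-like receptor and adaptor genes were higher, with a median of 0.09. After maternal LPS 10 of 27 were higher, with a median of -0.05. LY96 had there a difference of -0.73 ± 0.28, and limma's test of the difference between both settings gave an unadjusted p of 0.00254. No probe set passed the adjusted threshold in that test (smallest adjusted p 0.813). LY96 was named for its small p after maternal saline, which enters the same test, so nothing is read from the 0.00254. TLR2 differed by 0.03 after maternal LPS.

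The cytokines downstream of these receptors did not follow one direction. Of 44 acute cytokines and NF-kB targets 22 were higher and 22 lower, with a median of -0.00. IL6, the cytokine most tied to adrenal cortisol output, read 9.80, 10.50 and 10.88 in the controls and 10.68, 11.18 and 10.78 with microalgae (0.48 ± 0.61). CXCL8, which attracts neutrophils, read 9.87, 10.33 and 10.89 against 10.43, 10.72 and 10.80 (0.29 ± 0.39). TNF read 5.26, 4.96 and 4.28 against 5.45, 5.27 and 4.82 (0.35 ± 0.29), and the anti-inflammatory IL10 read 3.57, 3.99 and 3.59 against 3.96, 4.07 and 3.90 (0.26 ± 0.19). In all 4 the groups overlapped, and in IL6 and CXCL8 control piglet 8 was the lowest. On the lower side, CCL4, a chemokine, had -0.42 ± 0.25 and the nitric oxide synthase NOS2 had -0.31 ± 0.18.

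Interferon-stimulated genes were higher in 21 of 32 cases, with a median of 0.21, but the microalgae piglets disagreed with each other. IFIT2, an antiviral protein, read 7.996, 7.59 and 7.68 in the controls and 9.12, 8.46 and 7.59 with microalgae (0.64 ± 0.45). The list mean was 0.52 in piglet 12, 0.30 in piglet 15 and -0.17 in piglet 22, with the controls at 0.12, 0.12 and -0.07. Without piglet 12, 18 of 32 were higher with a median of 0.02, without piglet 15 the median was 0.13, and without piglet 22, 29 were higher with a median of 0.28. OAS1, which senses viral RNA, was lower in every microalgae piglet (4.99 to 5.29 against 5.67 to 5.84 in the controls, -0.64 ± 0.29, unadjusted p 0.0418); it stands outside the naming rule and was singled out after its value was seen.

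Of antigen presentation genes 14 of 24 were higher, with a median of 0.06; it was 11 of 24 (-0.02) without piglet 12 and 18 of 24 without piglet 22 (0.22) or piglet 8 (0.17). SLA-DOA, which modulates peptide loading, read 3.52, 3.34 and 3.21 against 4.02, 3.49 and 3.80 (0.41 ± 0.19), opposite in sign to SLA-DRB1. Complement and coagulation genes were higher in 13 of 18, with a median of 0.09 (0.05 without piglet 12, 0.18 without piglet 8), and after maternal LPS in 3 of 18, with a median of -0.27. Cortisol acts back on the gland through the glucocorticoid receptor. In a list of its targets, which also holds hormone receptors and chaperones, 10 of 15 genes were higher. Their median was 0.05 and turned to -0.06 without piglet 15. Among them ANXA1, the anti-inflammatory protein annexin A1, read 7.11, 7.04 and 6.92 in the controls and 7.78, 7.54 and 7.19 with microalgae, without overlap (0.48 ± 0.21, unadjusted p 0.0327). FKBP5, a standard cortisol-induced gene, had 0.27 ± 0.25.

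In the housekeeping and stress lists the counts were near even: 17 of 28 for oxidative phosphorylation, 16 of 29 for ribosomal proteins, 16 of 31 for heat shock and unfolded protein response, 9 of 18 for immediate early genes and 19 of 30 for antioxidant genes. These counts depended on single piglets and on the scaling. Immediate early genes were higher in 4 of 18 without piglet 12, 5 without piglet 14 and 14 without piglet 21, and heat shock genes in 11 of 31 without piglet 12 and 21 without piglet 15. Ribosomal protein genes were higher in 9 of 29 without piglet 8. With quantile normalization the counts were 9 of 28 for oxidative phosphorylation, 13 of 29 for ribosomal proteins, 12 of 31 for heat shock, 5 of 18 for immediate early and 16 of 30 for antioxidant genes. Of 15 proliferation genes 9 were higher, with a median of 0.04 that was -0.01 without piglet 14 and 0.11 without piglet 8. All microalgae values lay above all controls for 4 of the 15 and below for 1 (the kinesin KIF23, named after its value was seen), against 4.12% and 3.84% of the 9992 genes. MCM4, part of the replicative helicase, read 3.34, 4.17 and 3.67 against 4.81, 4.07 and 4.503, which overlapped (0.74 ± 0.23, unadjusted p 0.00523). RRM1, a subunit of the enzyme that makes deoxynucleotides, read 6.11, 5.99 and 6.14 against 6.57, 6.23 and 6.56, without overlap (0.38 ± 0.15, unadjusted p 0.0248).

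**Figure D4:**
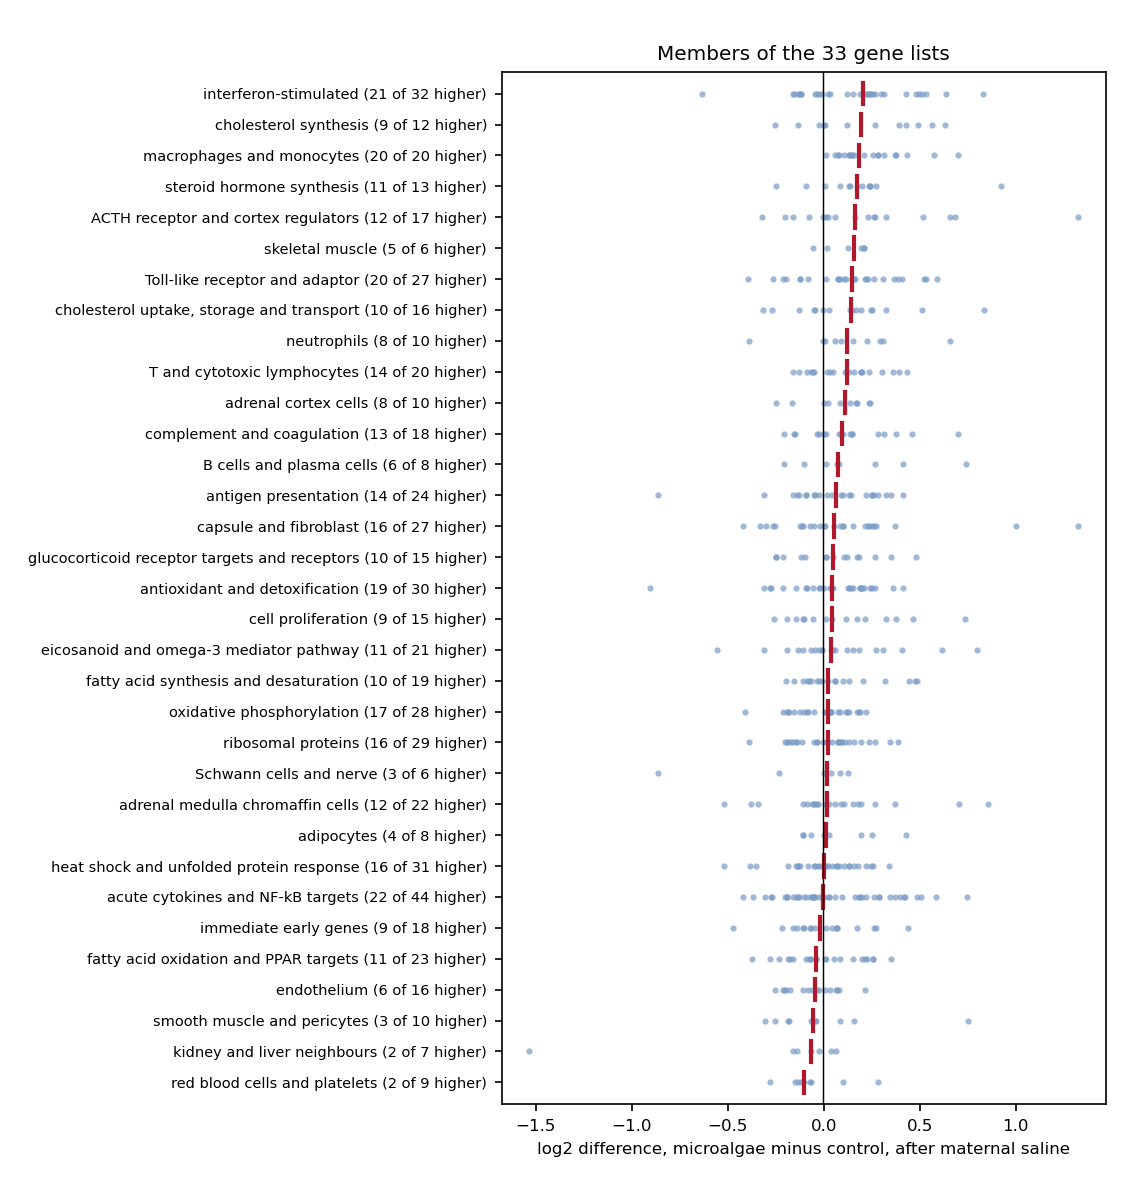
Microalgae minus control after maternal saline (x axis, log2 difference) for every matched and tested member of 33 gene lists, 1 point per gene and 1 row per list, with the list median as a red bar and the median of all probe sets as a vertical line. The medians run from -0.10 (red blood cells and platelets) to 0.21 (interferon-stimulated genes), and most members lie within 0.5 log2 of 0.

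Markers of cell types are set beside these lists, and their part in the values above was not tested. All 20 macrophage and monocyte markers matched by symbol and tested were higher with microalgae, with a median of 0.18 and 0 at an unadjusted p under 0.05. CYBB is also a listed marker, but under its array name GP91-PHOX it was not matched and is outside these counts. GP91-PHOX, described above, was higher with microalgae at an unadjusted p under 0.05 in limma, and lower after maternal LPS. C1QC, a chain of complement C1q made by macrophages, read 6.42, 6.15 and 6.27 in the controls and 7.47, 6.91 and 6.55 with microalgae, without overlap (0.70 ± 0.37). VSIG4, a complement receptor of resident macrophages, read 3.57, 3.78 and 3.52 against 4.32, 4.05 and 3.79 (0.43 ± 0.30). LYZ, lysozyme, read 4.96, 3.89 and 3.62 against 5.23, 4.74 and 4.21 (0.57 ± 0.39). CSF1R, MRC1 and MSR1, receptors of macrophages named here after their values were seen, had 0.06 ± 0.19, 0.37 ± 0.30 and 0.21 ± 0.24.

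The mean of the 20 macrophage markers was -0.09, -0.29 and -0.32 in control piglets 8, 14 and 21, and 0.31, 0.02 and -0.30 in microalgae piglets 12, 15 and 22. Microalgae piglet 22 was thus at the level of the lowest controls, and the groups overlapped. Without piglet 12, 14 of 20 markers were higher with a median of 0.07. Without piglet 22 the median was 0.36, and without control piglet 8 it was 0.29. After maternal LPS 4 of the 20 were higher, with a median of -0.30: the 3 controls lay between 0.06 and 0.16 and the 2 microalgae piglets at -0.14 and -0.20. The 3 control piglets after maternal saline were thus all below the 3 control piglets after maternal LPS. Fish oil piglets after maternal saline had a median of 0.40 over these markers against the same 3 controls.

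Other blood-derived cells showed smaller medians. Neutrophil markers were higher in 8 of 10 (0.12), T and cytotoxic lymphocyte markers in 14 of 20 (0.12), B and plasma cell markers in 6 of 8 (0.07), and red blood cell and platelet markers in 2 of 9 (-0.10). When 1 piglet was left out, the neutrophil median ran from 0.05 (without 8) to 0.29 (without 14) and the T cell median from 0.04 (without 15) to 0.20 (without 22). The B cell median ran from 0.01 (without 15) to 0.23 (without 22), and the red cell median from -0.16 (without 8) to 0.03 (without 14). NKG7, a granule protein of cytotoxic cells, read 4.11, 4.28 and 4.36 in the controls and 5.03, 4.77 and 4.25 with microalgae, which overlapped through piglet 22 (0.44 ± 0.17, unadjusted p 0.0187). S100A12, a calcium-binding protein of neutrophils, had 0.66 ± 0.37. Cortex cell markers were higher in 8 of 10 (0.11; -0.02 without control piglet 8). Endothelial markers were higher in 6 of 16 (-0.05; -0.16 without piglet 12 and 0.00 without piglet 15), and smooth muscle markers in 3 of 10 (-0.06; -0.15 without piglet 14 and 0.02 without piglet 12). For the capsule and its fibroblasts it was 16 of 27 (0.05). That became 22 of 27 (0.29) without piglet 8 and 19 (0.22) without piglet 12, but 10 (-0.17) without piglet 21 and 9 (-0.18) without piglet 22.

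Of the medulla markers 12 of 22 were higher, with a median of 0.02, but the microalgae piglets lay far apart. Their means were 0.38 in piglet 12, 0.23 in piglet 15 and -0.17 in piglet 22. Without piglet 12, 7 of 22 were higher with a median of -0.15, and without piglet 22, 19 were higher with a median of 0.17. DBH, which makes noradrenaline, read 6.88, 6.71 and 7.05 in the controls and 7.78, 6.72 and 5.997 with microalgae (-0.05 ± 0.54), a difference whose sign turned with array weights (0.07). PNMT, which makes adrenaline from it, read 7.68, 7.71 and 7.52 against 7.58, 7.32 and 6.44 (-0.52 ± 0.55). In both genes microalgae piglet 22 was the lowest of the 6. Piglet 22 thus combined the highest steroid gene mean of the 6 with low macrophage, interferon and medulla means.

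**Figure D5:**
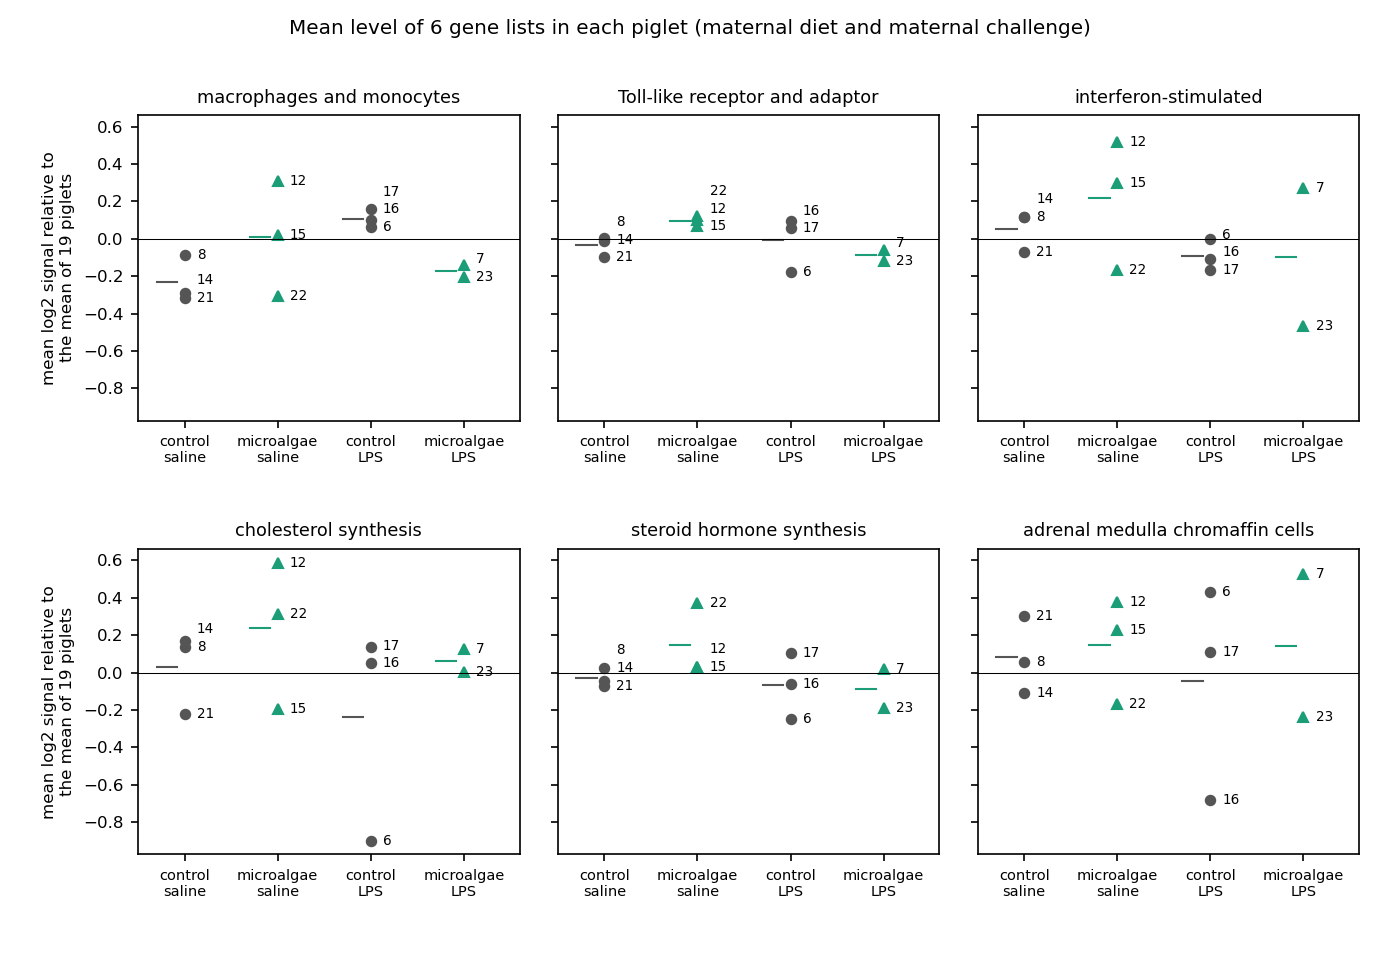
Mean log2 signal of 6 gene lists in each piglet, relative to the mean of all 19 piglets (y axis), by maternal diet and maternal challenge; each point is 1 piglet with its number, and short bars are group means. After maternal saline the 3 microalgae piglets are spread from -0.30 to 0.31 for macrophage markers, while for Toll-like receptor genes they lie together at 0.07 to 0.12, above the 3 control piglets (-0.10 to 0.01). For steroid hormone synthesis they also lie above the controls, by a narrow margin (0.03 to 0.37 against -0.07 to 0.02).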

How the data were processed

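Whole adrenal glands of 19 piglets were measured on 1-colour Affymetrix arrays after extraction with the RNeasy kit and WT PLUS labelling, per the labels' protocols. The authors deposited log2 signals for each piglet, made with Transcriptome Analysis Console 4.0 per the submitters' processing notes. Summarization and normalization are not given in the sources used here; base 2 was inferred from the range of 0.263 to 13.5. The platform annotation names 1 gene for 13157 of the 27558 probe sets, several for 523 and none for 13878; 7 symbols were updated. The 6890 probe sets with a mean of 3.23 or less were left out, and 20668 were tested.

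All 19 arrays entered 1 limma fit (version 3.58.1, under R 4.3.3) with group means for the 6 combinations of diet and challenge and a variance trend on intensity, which had 13 residual and 4.62 prior degrees of freedom. Tests were two-sided, adjusted by Benjamini-Hochberg over all probe sets, with a threshold of 0.05. P-values not called adjusted are unadjusted limma values. At a p under 0.01 without overlap, the 15 largest higher differences and all 14 lower ones were named. Fixed genes and up to 4 members of each of 33 gene lists were named with them. The members were ranked by p among those sharing the sign of the list median, and a few others are marked in the text. The cortex regulator list holds the symbol SF1, which on this array is splicing factor 1. The lists were described by counts and medians, with no set test, and the workflow was tested on simulated data. The comparison, its genes and its lists were chosen with earlier results of these data known. Alternatives covered the filter, scaling, array weights, variance prior, samples in the fit, covariates and left-out piglets.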

Additional observations from a re-analysis of the deposited data

How the results depend on the processing

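The number of probe sets past the adjusted threshold was 0 in the diet comparison after maternal saline, in that after maternal LPS and in the test of their difference, under every alternative run. The numbers at an unadjusted p under 0.05, in that order, were 563, 752 and 1118. They became 929, 2011 and 2329 with array weights, and 286, 367 and 562 with 1 probe set per gene symbol. A stricter filter on dim probe sets, at the median of all means, gave 358 after maternal saline and 495 after maternal LPS; fewer probe sets are tested in both of these restrictions. With the spread of each array as covariate they were 857 and 1163. Without piglets 6 and 24, the arrays with the lowest correlation to the others and an alternative chosen after seeing the data, they were 1926 after maternal LPS and 2422 for the difference. Leaving out 1 piglet gave 406 to 900, 506 to 1409 and 683 to 1851. The cause of these shifts was not tested, except where fewer probe sets or piglets entered. Leaving out a microalgae piglet after maternal LPS leaves 1 in that group, which is assumed to vary like the others. The difference test has no version on arrays of 1 maternal challenge.

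Every gene among the 29 named kept its direction under every alternative that gave it a value. For the filter, variance prior, samples in the fit, array weights and left-out piglets this was fixed in advance. The groups of these genes did not overlap, by the rule that named them, so nothing is read from it. The genes that follow were not chosen by separation and cannot be set against the 29. Differences reversed for CYP21A2 (-0.0256 with quantile normalization, -0.0844 to 0.22 when 1 piglet was left out), DBH (0.0741 with array weights, -0.52 to 0.368 without 1 piglet), HSD11B2 (-0.117 to 0.52), HSD3B1 (-0.0649 to 0.38) and SCARB1 (-0.103 to 0.31). No paired analysis was possible because the groups share no piglet number in the labels. Array number and signal near the filter level (3.23) limit the precision.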
